A study of Homo sapiens with 6 samples.

Results

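The translation elongation factor genes EEF1A1, EEF1B2, EEF1D, EEF1G and EEF2 were followed in RNA recovered with LARP1. They are 5 of the 60554 gene IDs in the count files and were taken by Ensembl ID: ENSG00000156508 (EEF1A1), ENSG00000114942 (EEF1B2), ENSG00000104529 (EEF1D), ENSG00000254772 (EEF1G) and ENSG00000167658 (EEF2). Of these 5, 4 had reads, and EEF1G was listed at 0 in every library. HCT116, a human colorectal carcinoma line, was the only cell source. All libraries came from the free 40S fraction of a sucrose gradient, where small ribosomal subunits that are not part of whole ribosomes collect. Of the 6 libraries, 2 were made from an anti-LARP1 immunoprecipitate (LARP1 IP), 2 from a control precipitate with IgG of normal rabbit serum (IgG IP) and 2 from RNA of the fraction with no antibody (Input). No treatment or genetic change is given for any group. The comparisons ask which transcripts are recovered with LARP1 from this fraction above antibody background and above their abundance there.

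The encoded factors carry out the elongation cycle. eEF1A delivers aminoacyl-tRNA to the ribosome while bound to GTP. The eEF1B complex reloads it with GTP, its beta (EEF1B2) and delta (EEF1D) subunits being exchange factors and its gamma subunit (EEF1G) a structural partner. eEF2 then moves the ribosome along the mRNA. Messages for translation factors of this kind are counted, with those for ribosomal proteins, among the TOP mRNAs, which start with a C and an unbroken stretch of pyrimidines (C or T in the gene), the 5′ terminal oligopyrimidine motif. LARP1 is known to bind this motif next to the cap and to control the translation and stability of such mRNAs.

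The annotated first bases of 4 of the genes are shown because this motif defines the class. Each line gives 30 bases, 10 before and 20 from the annotated RefSeq start (GRCh38.p14), 5′ to 3′ on the strand of the gene. Capitals mark the unbroken run of C and T that begins at the first transcribed base.
EEF1A1: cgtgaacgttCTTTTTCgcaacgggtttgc
EEF1B2, downstream start: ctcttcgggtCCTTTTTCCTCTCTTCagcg
EEF1B2, upstream start: aagtggccccagcctcgaggccgggcgtct
EEF1G: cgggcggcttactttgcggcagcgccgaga
EEF2: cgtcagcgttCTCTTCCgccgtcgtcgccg
The EEF1A1 bases are chr6:73521013-73521042 (minus strand), those of the downstream EEF1B2 start chr2:206159885-206159914 (plus strand), and those of the upstream one chr2:206159599-206159628 (plus strand). The EEF1G bases are chr11:62573872-62573901 and the EEF2 bases chr19:3985444-3985473, both on the minus strand.

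The run is 7 bases long in EEF1A1 and in EEF2 and 16 bases long at the downstream EEF1B2 start. The upstream EEF1B2 start and the EEF1G start begin with A, and in EEF1G a run of 4 bases follows from base 2. A C at the annotated start followed by at least 4 bases that are each C or T, read on the strand of the gene, was found at 3 of these 5 starts and at 4.07% of the 35116 starts in the RefSeq table. A run of at least 7 bases beginning with C was found at 2.1% of all starts, and one of at least 16 at 0.117%. The lengths 7 and 16 were taken from the members' own starts, so these 2 shares are a description and add no support. The match describes annotated starts, not the starts used in these cells, and the counts do not separate transcripts of EEF1B2 by start.

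Together the 5 genes held 2.77% and 2.93% of all counts in the LARP1 IP libraries, 0.409% and 0.455% with IgG and 0.119% and 0.143% in Input. The ranges did not overlap, and the mean share in the LARP1 IP was 6.6 times that in the IgG IP and 21.8 times that in Input. Both ratios rest on what else is in the libraries. Among counts outside the 2 most abundant genes, the shares were 3.78% and 3.73% with anti-LARP1, 1.4% and 1.6% with IgG and 1.05% and 1.18% in Input, and the ratios 2.5 and 3.37. An exact two-sided permutation test of 2 libraries against 2 gave p = 0.33 for each, the smallest value that it can give.

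All 4 members with reads were higher in the LARP1 IP than in the IgG IP, 4 of 4 tested at an adjusted p under 0.05, against 8.54% of the 10788 genes tested. The same 4 were higher than Input, where the background was 4.63% of tested genes. In both comparisons the 2 LARP1 IP libraries of each member lay above both control libraries, an order that 27.3% of tested genes showed against the IgG IP and 28.8% against Input. The median log2 fold change of the 4 was 2.72 over the IgG IP and 2.66 over Input, with all tested genes at -0.0649 and 0.0328. EEF1B2 had the largest change and EEF2 the smallest in both. These values come from edgeR's quasi-likelihood test with TMM scaling, and the 2 comparisons share the LARP1 IP libraries, so their values for a member are not independent. A level or fold change here is relative to the other RNA of the same library, since no external standard was analysed here.

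**Figure D1:**
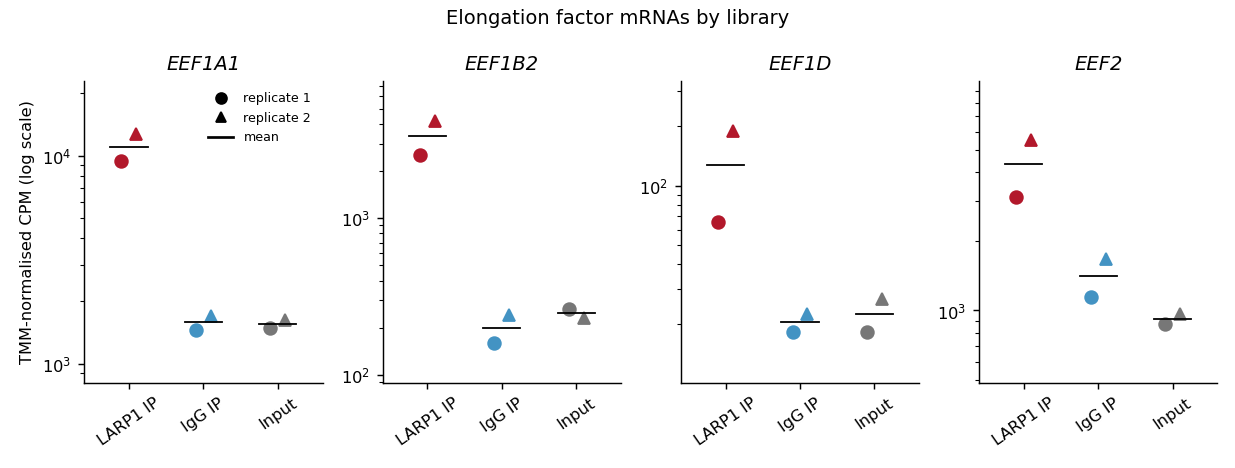
Normalised level of each elongation factor mRNA in the 6 libraries. The y axes are TMM-normalised CPM on a log scale with a range of their own in each panel, circles are replicate 1, triangles replicate 2 and bars group means (n = 2). The 2 LARP1 IP libraries lie above all 4 control libraries in each panel, and replicate 2 of the LARP1 IP is the higher of its pair.

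EEF1A1, the tRNA-delivering GTPase, gave 89724 and 68099 counts with anti-LARP1, 15800 and 17172 with IgG and 4448 and 5209 in Input. Scaled to the library (CPM, counts relative to the TMM-scaled library size), these were 9413 and 12668 with anti-LARP1, 1460 and 1704 with IgG and 1492 and 1617 in Input. The IgG IP and Input libraries interleaved, and both LARP1 IP libraries stood far above them. The log2 fold change was 2.80 ± 0.41 (SE) over the IgG IP and 2.83 ± 0.41 over Input, which is 6.98-fold and 7.1-fold (edgeR adjusted p = 0.000805 and 0.00116). Of all tested genes, 3.18% had a larger log2 fold change over the IgG IP and 2.79% over Input. EEF1A1 lies on chromosome 6 (73515750 to 73521032, GRCh38.p14), and the RefSeq table lists 50 pseudogenes named after it. How reads matching several copies were counted is not given in the sources used here, so its counts are uncertain by the reads it shares with them.

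EEF1B2, the beta subunit of the exchange complex, had the largest rise. Its counts were 24306 and 22471 with anti-LARP1, 1730 and 2431 with IgG and 787 and 749 in Input. Its level was 2550 and 4180 CPM with anti-LARP1, 160 and 241 CPM with IgG and 264 and 232 CPM in Input. The control groups again interleaved, while both LARP1 IP libraries stood far above them. The log2 fold change was 4.07 ± 0.47 over the IgG IP and 3.76 ± 0.46 over Input, or 16.8-fold and 13.6-fold (edgeR adjusted p = 0.000179 and 0.000935). It ranked 101 and 102 by fold change among the 10788 tested genes. The gene lies on chromosome 2 (206159609 to 206162928) with 2 small nucleolar RNA genes, SNORD51 and SNORA41, inside its span, and 8 pseudogenes carry its name.

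EEF2, the translocase, gave 29706 and 29724 counts with anti-LARP1, 12374 and 16888 with IgG and 2600 and 3117 in Input. Its level was 3116 and 5529 CPM with anti-LARP1, 1143 and 1676 CPM with IgG and 872 and 968 CPM in Input. Here the 3 groups did not overlap in CPM, with the IgG IP between Input and the LARP1 IP. How many of all tested genes show this order was not computed, so it is not read as a trait of EEF2. The IgG IP against Input change was not called (edgeR adjusted p = 0.827). The log2 fold change was 1.62 ± 0.43 over the IgG IP and 2.23 ± 0.44 over Input, or 3.07-fold and 4.7-fold (edgeR adjusted p = 0.0278 and 0.0084). Over the IgG IP, 9.11% of tested genes had a larger log2 fold change, and over Input 4.25%. The gene lies on chromosome 19 (3976056 to 3985463), holds SNORD37 inside its span and has 0 pseudogenes under its name in the table.

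The call for EEF2 against the IgG IP was the least stable of the 8. By edgeR it was lost without LARP1 IP replicate 2 (log2 fold change 1.15, adjusted p = 0.115), without IgG IP replicate 1 (1.37, adjusted p = 0.175), without Input replicate 1 (1.64, adjusted p = 0.0645) or Input replicate 2 (1.61, adjusted p = 0.0913), and in a fit of only the 4 libraries compared (1.60, adjusted p = 0.0949). DESeq2 called it on all 6 libraries (log2 fold change 1.60, adjusted p = 0.00234), but not without LARP1 IP replicate 2 (adjusted p = 0.105) or IgG IP replicate 1 (adjusted p = 0.058). Scaled to total counts without the 2 most abundant genes, the log2 fold change was 0.37 (edgeR adjusted p = 0.275), where the median of all genes moved to -1.24. Over its 21 alternatives the edgeR and DESeq2 adjusted p ran from 0.000461 to 0.275.

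EEF1D, the delta subunit, had the fewest counts of the members with reads. Its counts were 624 and 1009 with anti-LARP1, 197 and 227 with IgG and 54 and 86 in Input. The 54 Input counts have an exact 95% Poisson interval of 40.6 to 70.5 and the 86 counts one of 68.8 to 106, which cover counting error only. Its level was 65.5 and 188 CPM with anti-LARP1, 18.2 and 22.5 CPM with IgG and 18.1 and 26.7 CPM in Input. The IgG IP values lay within the Input range, and the LARP1 IP replicates differed by 2.87 times, the widest gap of any member within a group. The log2 fold change was 2.63 ± 0.51 over the IgG IP and 2.49 ± 0.52 over Input, or 6.2-fold and 5.63-fold (edgeR adjusted p = 0.00529 and 0.0116). Without LARP1 IP replicate 2 these became 1.69 (adjusted p = 0.0414) and 1.56 (adjusted p = 0.108), and without LARP1 IP replicate 1 they became 3.21 (adjusted p = 7.39e-05) and 3.07 (adjusted p = 0.000208). Against Input the call was also lost when libraries were scaled to their counts outside the 2 most abundant genes (1.38, adjusted p = 0.0663). In the RefSeq table the gene spans 143579728 to 143597415 of chromosome 8, and 8 pseudogenes are named after it.

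EEF1G, the gamma subunit, was listed at 0 in all 6 libraries. It did not enter the test, and no fold change is given. A count of 0 would allow up to 3 counts, which is 0.372 to 0.725 CPM of the unscaled library totals, as far as counting error goes. The subunit is a housekeeping protein, and the listed 0 is not read as a level of its mRNA. The gene lies on chromosome 11 (62559596 to 62573891), with the miRNA gene MIR6747 inside its span and 8 pseudogenes under its name. Whether the way reads were assigned to this ID gave the 0 was not tested.

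**Figure D2:**
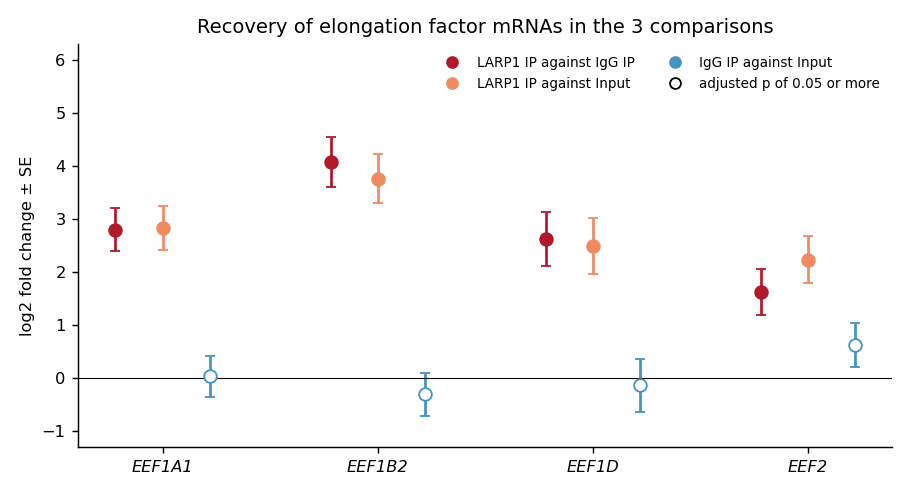
Log2 fold change of the 4 elongation factor mRNAs with reads in the 3 comparisons, from edgeR, with bars of 1 SE. Filled points passed an adjusted p of 0.05: all 8 LARP1 IP values, from 1.62 to 4.07, and none of the 4 IgG IP against Input values, from -0.31 to 0.62.

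The IgG IP against Input shows what the control serum recovers. By edgeR, 0 of the 4 members passed, as did 0% of all tested genes. An unadjusted p under 0.05 was found for 0 members and for 725 of the 10788 genes tested. That share is too small for 0 of 4 to set the members apart. DESeq2 also called 0 of the 4, with 0.176% of all tested genes called higher and 0.176% lower. The log2 fold changes were 0.03 ± 0.38 for EEF1A1, -0.31 ± 0.41 for EEF1B2, -0.14 ± 0.50 for EEF1D and 0.62 ± 0.42 for EEF2 (edgeR adjusted p = 1, 0.917, 0.973 and 0.827). In TMM-scaled CPM, EEF2 was the only member whose IgG IP libraries both lay above both Input libraries. As shares of all counts, each of the 4 members showed that order. Among counts outside the 2 most abundant genes, EEF1A1 and EEF2 did. How many of all tested genes show that order was not computed, so it does not single out EEF2. These values depend on the scaling: with total counts all 4 were called higher, at 1.53, 1.19, 1.35 and 2.11 in the same order (edgeR adjusted p = 0.00985, 0.0106, 0.0288 and 0.00985), but so were 53.9% of the 10788 genes tested, and the median of all genes moved from 0.00822 to 1.51. Relative to that median, EEF1B2 and EEF1D lay below it, EEF1A1 at about its level and EEF2 above it.

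**Figure D3:**
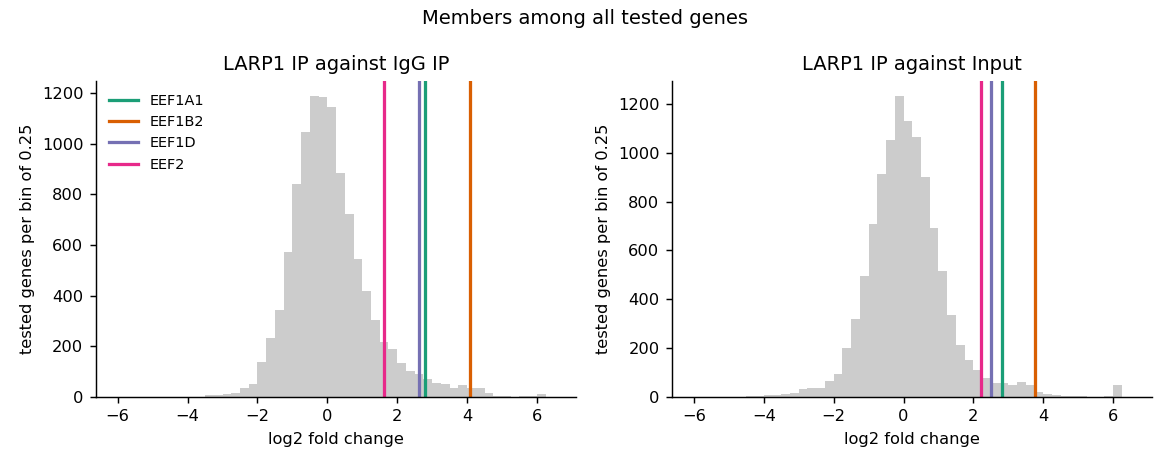
Distribution of log2 fold changes over the 10788 tested genes (grey bars, bins of 0.25) for LARP1 IP over IgG IP (left) and over Input (right). Values further out were added to the bins from -6 to -5.75 and from 6 to 6.25. Coloured lines mark the 4 members, which lie in the upper tail at 1.62 to 4.07 on the left and 2.23 to 3.76 on the right.

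By edgeR, but not by DESeq2, the calls against Input rested on both Input libraries. Without Input replicate 1 the log2 fold changes were 2.79 for EEF1A1, 3.86 for EEF1B2, 2.23 for EEF1D and 2.16 for EEF2, close to the full values, but 0 of the 4 passed (edgeR adjusted p = 0.0719, 0.0648, 0.172 and 0.144). Without Input replicate 2 they were 2.90, 3.68, 2.81 and 2.32, and again 0 passed (edgeR adjusted p = 0.0986, 0.0817, 0.159 and 0.209), as was so for all genes tested in these fits. DESeq2 called all 4 without either Input library. Against the IgG IP, EEF1A1, EEF1B2 and EEF1D passed under each of the 21 alternatives, at log2 fold changes from 1.58 to 3.0, 2.83 to 4.39 and 1.31 to 3.21. The low end of each range is the scaling to counts outside the 2 most abundant genes, under which the median of all genes was -1.24. Against Input that scaling gave 1.82, 2.72, 1.38 and 1.18 for EEF1A1, EEF1B2, EEF1D and EEF2 (median of all genes -0.923), and total counts gave 4.51, 5.43, 4.08 and 3.88 (median 1.75).

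**Figure D4:**
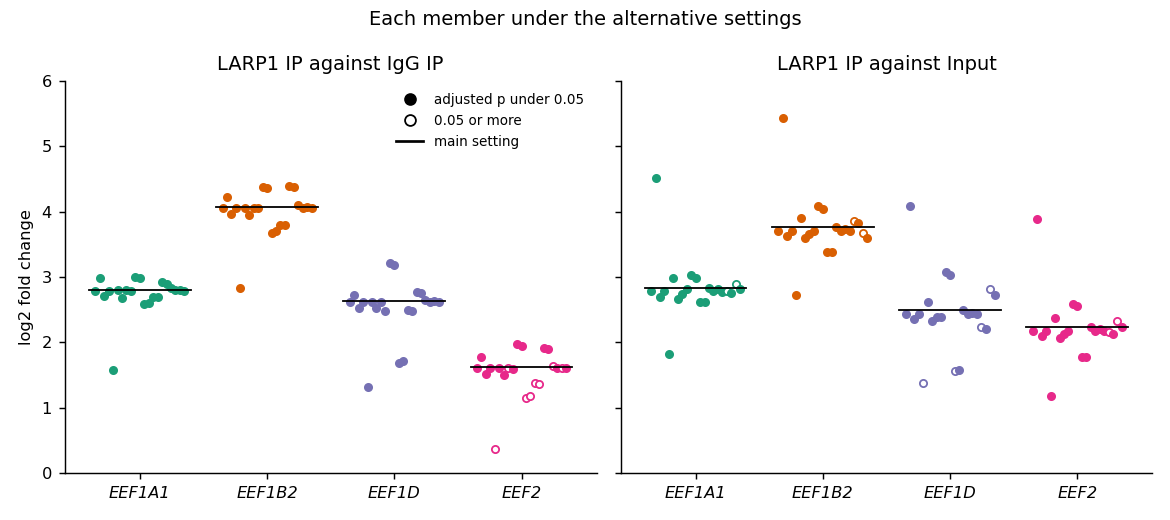
Log2 fold change of each member under the 21 alternative settings, for LARP1 IP over IgG IP (left) and over Input (right). Filled points passed an adjusted p of 0.05, open points did not, and the black line is the main value. On the left only EEF2 has open points (8 of 21). On the right EEF1A1, EEF1B2 and EEF2 have 2 each and EEF1D 4. The highest point of each member on the right, from 3.88 to 5.43, is the fit scaled to total counts.

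The members were also set against each other by a measure that no scaling can change, since a ratio of 2 genes inside one library keeps its value whatever the library is divided by. The log2 ratio of EEF1B2 to EEF2 counts was -0.29 and -0.40 with anti-LARP1, -2.84 and -2.80 with IgG and -1.72 and -2.06 in Input. EEF1B2 thus gained on EEF2 by 2.47 on the log2 scale from the IgG IP to the LARP1 IP and by 1.54 from Input. Replicates lay closer together than the groups did, and the groups did not overlap. EEF1B2 also gained on EEF1A1: the log2 ratio of EEF1A1 to EEF1B2 was 1.88 and 1.60 with anti-LARP1, 3.19 and 2.82 with IgG and 2.50 and 2.80 in Input.

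EEF1A1 gained on EEF2, with log2 ratios of 1.59 and 1.2 with anti-LARP1, 0.35 and 0.02 with IgG and 0.77 and 0.74 in Input. For the 2 exchange factors, the log2 ratio of EEF1B2 to EEF1D was 5.28 and 4.48 with anti-LARP1, 3.13 and 3.42 with IgG and 3.87 and 3.12 in Input. In these 4 of the 6 pairs the LARP1 IP libraries lay outside the range of all 4 control libraries. In the other 2 they overlapped it: the EEF1A1 to EEF1D ratio, at 7.17 and 6.08 against 5.92 to 6.36, and the EEF1D to EEF2 ratio, at -5.57 and -4.88 against -6.22 to -5.18. These ratios mix transcript length with abundance, so only their change between groups is compared. They are given as a description, with no test. The 6 pairs share genes, EEF1B2 above all, so they are not independent. How often other pairs of genes lie outside the control range was not computed, so 4 of 6 is not read as a trait of the members.

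**Figure D5:**
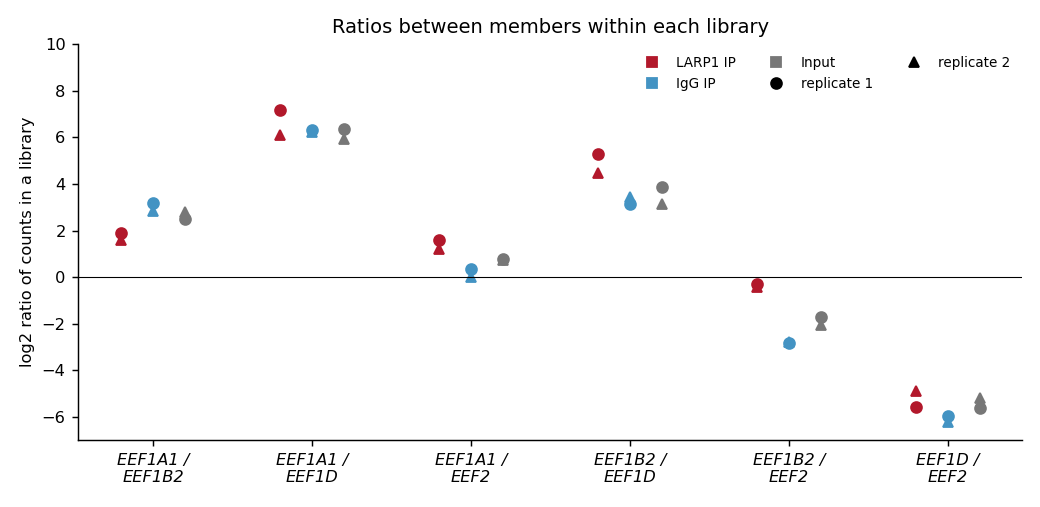
Log2 ratio of the counts of 2 members within each library, for the 6 pairs of members with reads (circles replicate 1, triangles replicate 2). LARP1 IP points lie outside all control points for EEF1A1 to EEF1B2 (1.60 and 1.88), EEF1A1 to EEF2 (1.2 and 1.59), EEF1B2 to EEF1D (4.48 and 5.28) and EEF1B2 to EEF2 (-0.40 and -0.29).

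Between the LARP1 IP replicates all 4 members were higher in replicate 2 after TMM scaling, by 1.35 times for EEF1A1, 1.64 times for EEF1B2, 1.77 times for EEF2 and 2.87 times for EEF1D. As shares of all counts the gap was smaller and did not run one way: EEF1A1 held 1.72% and 1.65% of the 2 libraries, EEF1B2 0.466% and 0.543%, EEF2 0.57% and 0.719%, and EEF1D 0.012% and 0.0244%. In the IgG IP replicate 2 was the higher library for each of the 4, by 1.17 to 1.51 times. In Input it was higher for EEF1A1, EEF1D and EEF2, by 1.08 to 1.47 times, and at 0.881 times for EEF1B2.

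Other genes came as close to the mean profile of the members across the 6 libraries as the members did. Levels on the log2 scale were centred on each gene's own mean, and genes were ordered by the root mean square difference from the mean profile of the 4 members with reads. EEF1A1 itself was at 0.14, EEF1D at 0.28, EEF2 at 0.47 and EEF1B2 at 0.57. Their ranks were 2, 38, 212 and 370 of the 10788 genes, in that order. Most genes nearer to the mean profile than EEF2 or EEF1B2 were thus not members. The nearest IDs that are not members were ENSG00000100316.15 at 0.14 and ENSG00000130005.11 at 0.15, over 6 libraries of 3 groups. The first stood at 2733 and 6180 CPM with anti-LARP1, 529 and 740 CPM with IgG and 478 and 574 CPM in Input. The second was far lower, at 15 and 35.2 CPM in the LARP1 IP and 2.77 to 4.04 CPM in the controls. Both were picked for their likeness in these same libraries, so their course is a description and adds no support. The files do not pair these IDs with gene names.

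The 6 libraries held 4135463 to 8069554 counts. Outside the 2 most abundant genes, 3256012 to 3823470 remained in the LARP1 IP, 2144182 to 2299877 in the IgG IP and 752862 to 778680 in Input, so the Input values rest on the fewest reads. No label places replicates in separate cultures beyond calling them biological, and the p-values rest on differences within the groups, pooled over the 3 groups and moderated across genes, which may be technical. The markers of the labelled colon epithelial cells were not checked, because the IDs could not be paired with their symbols.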

How the data were processed

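Stranded libraries without poly(A) selection were made from TRIzol-purified RNA, per the labels' protocols. The deposited values are the authors' raw read counts per gene, 1 file for each of 6 libraries, unnormalised and unpooled. Per the submitters' processing notes reads were handled on build GRCh38 with TopHat2 2.1.1 and Bowtie2, CASAVA 1.8, Subread 1.20.6 and featureCounts, named without role. The sources used here do not give the annotation release, the strand setting or the rule for multiply mapping reads. These choices bear most on genes with pseudogenes or overlapping neighbours.

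The whole table was fitted with edgeR 4.0.16 (R 4.3.3): filterByExpr (minimum count 10; 10788 genes), TMM, group as the only term over all 6 libraries, glmQLFTest, Benjamini-Hochberg adjustment, threshold 0.05. SE is the log2 fold change divided by the square root of F. Alternatives used DESeq2 1.42.0, other scalings, filters and sample sets; exact permutation tests used scipy 1.17.1. Replicates differed by 4.38 to 33 times sampling noise (chi-square per degree of freedom), so none is a copy of another's counts, though they could still share 1 culture.

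Members and lists were chosen with earlier results of these data known. All members are named; the nearest other genes were to be named by symbol, or the 2 nearest by ID where none could be paired. In the RefSeq table (GRCh38.p14) 0 of 59792 genes carry an Ensembl ID, so other elongation factors, ribosomal proteins and cell markers were not analysed here. RefSeq starts were matched by symbol for 4 members.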

Additional observations from a re-analysis of the deposited data

How the results depend on the processing

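Under the alternatives with 2 libraries in each group, 3 or 4 of 4 members were called higher against the IgG IP. Beside them, 3.3% to 14.1% of all tested genes were called higher. Against Input it was also 3 or 4 of 4, beside 1.71% to 60.9% of all tested genes, the most with total counts. By edgeR the calls against Input rested on both Input libraries, as given above. DESeq2 without each library was chosen after seeing the data. For the IgG IP against Input, total counts called 4 where the main setting called 0, with 53.9% of all genes tested called higher. The ratio of member shares was 2.5 over the IgG IP and 3.37 over Input outside the 2 most abundant genes.

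Changes of sign occurred only in the IgG IP against Input. EEF1A1 (main 0.03) was -0.01 with DESeq2, upper-quartile and RLE factors, -0.02 with the filter at 50 counts, -0.11 to 0.13 with libraries left out, and -0.12 and -0.05 with DESeq2 without IgG IP replicate 2 and Input replicate 1. EEF1B2 was 1.19 and EEF1D 1.35 with total counts. EEF1D was 0.06 when scaled to counts outside the 2 most abundant genes, 0.01 without a low-count filter, -0.41 to 0.18 with libraries left out and 0.12 with DESeq2 without Input replicate 2. Apart from the construction of each setting (fewer libraries, another scaling or filter), the cause was not tested.

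The groups share replicate numbers but no stated batch, and deviations of same-numbered libraries correlated at 0.134 to 0.5. No reference value was computed for these correlations, and whether same-numbered libraries share a batch was not tested. With a replicate block, 4 members were again higher in either LARP1 IP comparison, EEF2 at 1.59 over the IgG IP (edgeR adjusted p = 0.00485). For the IgG IP against Input 0 members were called, beside 0.362% of all tested genes called higher and 0.324% lower. Over all 10788 genes tested, the block raised the higher calls from 921 to 1526 (14.1%) over the IgG IP and from 499 to 1083 (10%) over Input. Depth limits Input most, EEF1D with 54 and 86 counts there.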
